A study of Mus musculus with 10 samples.

Results

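Id2, Mef2c, Neurod1 and Zic4 are 4 nuclear regulators of neural cells whose spots were followed on arrays of mouse midbrain RNA. They were chosen by their low ratio of collagen-treated over control RNA in an earlier analysis of the same arrays, so those ratios are a description here and carry no test. The probe annotation gave each of the 4 genes a single probe, among 8726 named genes with a probe, of which 3738 were measured in all 3 replicates.

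The study compared the midbrain of male DBA/1 mice with collagen-induced arthritis, an immune-driven joint disease, with that of control mice. Every animal was 8 weeks old when first injected, and both groups received lipopolysaccharide on day 24. The collagen mice had been injected into the skin with type II collagen (100 ul) and an equal volume, 100 ul, of adjuvant, and the controls with 200 ul of adjuvant alone, in each case complete Freund's adjuvant, so the groups shared adjuvant and lipopolysaccharide and differed in the collagen and in the volume of adjuvant. The label gives decapitation at 31 with a unit that is unclear, and how many animals each RNA came from is not stated in the labels.

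Each array held control RNA and collagen RNA in different dyes, Cy3 and Cy5, and each RNA pair was hybridised again with the dyes exchanged. The 10 arrays formed 5 such dye-swap pairs of 3 replicates. Replicates 1 and 2 had 2 pairs each and replicate 3 had 1 pair, by the replicate number in the titles, and pairs of one number are called repeats here. Across probes, the ratios of the repeat pairs correlated weakly, at 0.0386 over 2022 probes in replicate 1 and 0.116 over 2265 in replicate 2, and probes are not independent replicates. Of the arrays, 5 had the collagen RNA in Cy5 and 5 had it in Cy3. Each value below is a log2 ratio of collagen over control unless it is said to be a dye effect. The direction is likely rather than stated: channel A of the files was taken as Cy3, the dye of the first channel in the labels, and every sign turns if channel A was Cy5. Replicate error is the SD over the 3 replicates. The 29 scans each gave 4038 to 7971 usable spots of 10080, and 4139 probes had a ratio in every replicate. Of 8 midbrain neuron markers with a probe, 7 were measured, among them Th, which makes the precursor of dopamine, and Slc6a4, the serotonin transporter. In bulk tissue, fewer cells of a type and less RNA per cell cannot be told apart.

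Id2 belongs to the Id proteins, which lack a DNA-binding region and hold E proteins in pairs that cannot bind E-boxes. Neurod1 is a basic helix-loop-helix activator that binds E-boxes together with an E protein and drives neuronal differentiation, most visibly in cerebellar granule cells. Mef2c is a MADS-box factor whose activity is controlled by calcium signals and class IIa histone deacetylases and which shapes synapse number. Zic4 is a zinc finger factor of the dorsal neural tube and cerebellum, encoded beside Zic1.

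The promoters of the 4 genes are shown because Id2 and Neurod1 act on opposite sides of the E-box. Each RefSeq window of build GRCm38.p6 runs from 250 bases before to 50 after the annotated start, written 5′ to 3′ on the gene's strand, with every E-box (CANNTG, which reads as CANNTG on both strands) in capitals. All 4 genes matched a window, and Mef2c, on chromosome 13, had 3 annotated starts, of which the first is shown.
Id2 promoter, chr12:25096043-25096342, minus strand: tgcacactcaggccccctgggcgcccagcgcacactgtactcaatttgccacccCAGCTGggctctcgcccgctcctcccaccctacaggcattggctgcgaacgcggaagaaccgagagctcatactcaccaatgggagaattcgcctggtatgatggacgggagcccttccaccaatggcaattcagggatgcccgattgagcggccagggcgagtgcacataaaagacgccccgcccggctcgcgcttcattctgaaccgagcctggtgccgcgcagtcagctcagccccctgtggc
Neurod1 promoter, chr2:79456587-79456886, minus strand: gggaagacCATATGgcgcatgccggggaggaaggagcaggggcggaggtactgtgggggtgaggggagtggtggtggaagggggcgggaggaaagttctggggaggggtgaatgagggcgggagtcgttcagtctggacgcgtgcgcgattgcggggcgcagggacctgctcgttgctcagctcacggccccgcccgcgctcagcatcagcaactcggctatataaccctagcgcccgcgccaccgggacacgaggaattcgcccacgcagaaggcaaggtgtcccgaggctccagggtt
Mef2c promoter, chr13:83503784-83504083, plus strand: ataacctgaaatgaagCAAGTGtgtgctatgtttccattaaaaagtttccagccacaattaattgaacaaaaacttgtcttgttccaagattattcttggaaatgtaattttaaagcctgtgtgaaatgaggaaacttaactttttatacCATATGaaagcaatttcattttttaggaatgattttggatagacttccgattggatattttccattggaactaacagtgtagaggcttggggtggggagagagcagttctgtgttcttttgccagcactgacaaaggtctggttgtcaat
Zic4 promoter, chr9:91368722-91369021, plus strand: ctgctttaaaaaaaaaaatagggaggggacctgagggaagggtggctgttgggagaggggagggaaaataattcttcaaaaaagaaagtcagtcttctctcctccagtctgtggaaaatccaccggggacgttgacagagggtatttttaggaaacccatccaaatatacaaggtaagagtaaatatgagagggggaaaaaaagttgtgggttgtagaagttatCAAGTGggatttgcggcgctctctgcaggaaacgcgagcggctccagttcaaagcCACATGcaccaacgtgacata
The shown windows of Id2 and Neurod1 held 1 E-box each, and those of Mef2c and Zic4 held 2 each. E-boxes were found in 72.3% of all 32851 windows of this length. The other Mef2c windows held 0 and 1, the last of them reading CAGATG, a form found in 17.2% of all windows. None of the 6 member windows held the MEF2 consensus on either strand, against 3.2% of all windows. The windows differed in base composition: the G and C content was 66.7% for Neurod1, 63.3% for Id2, 46.0% for Zic4 and 35.7% for the shown Mef2c window, around a median of 52.7%. A match is a run of letters and does not show that a factor bound there.

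Mef2c had the lowest mean ratio of the 4 genes, and its low values came from replicates 2 and 3. The replicate ratios were -0.11, -0.99 and -0.83, with a mean of -0.64 ± 0.46 (SD, n = 3), which is 1.56-fold lower in collagen RNA and the fifth lowest of the 4139 probes (rank 5). In replicate 2 the array with collagen in Cy5 read -1.21 and its dye swap -0.98. The repeat hybridisation of replicate 2 gave -0.87 in both orientations. Replicate 3 gave -0.46 with collagen in Cy5 and -1.19 with collagen in Cy3. On the array at -1.19 the corrected collagen signal was smaller than its background on every scan, at 41202 against 100928 on the first. Its scans differed with an SD of 0.25, the largest for Mef2c. The 6 arrays of replicates 2 and 3 were therefore all low, in both dyes. In replicate 1 the first pair read -0.15 and -0.28, and the second pair -0.14 and 0.12. Those 4 arrays lay above all 6 arrays of the other replicates, with no overlap. How many other probes split in this way was not counted. Mef2c was the only 1 of 2265 probes (0.0442%) with all 6 arrays of replicates 2 and 3 under -0.4. That share describes the ratios by which Mef2c was chosen. The mean was -0.91 without replicate 1, -0.47 without replicate 2 and -0.55 without replicate 3, and -0.24 with normexp background correction.

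Before normalisation the Mef2c spots of replicate 2 were read beside the other spots of the same scans. On its first array, with collagen in Cy5, the first scan gave an intensity of 918940 for control RNA and 303995 for collagen RNA. On the dye swap the first scan gave 240971 for control and 97561 for collagen. Control RNA was the brighter channel in both orientations. In replicate 3 the picture before normalisation depended on the dye. With collagen in Cy5 the first scan gave 482826 for control and 857561 for collagen, and with collagen in Cy3 it gave 208976 and 41202. The log2 ratios of channel B over A were 0.83 and 2.34, beside medians of 1.08 and 1.39 over the usable spots of those scans. The ratio with collagen in Cy5 was thus above 0 before the loess and below 0 after it.

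Repeat hybridisations of Mef2c differed by 0.20 in replicate 1 and 0.22 in replicate 2, beside medians of 0.19 and 0.15 over all probes. The gap between replicate 1 and the other replicates was thus larger than the difference between its repeat pairs. How many other probes had such a gap was not counted, and Mef2c was chosen by these ratios.

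**Figure D1:**
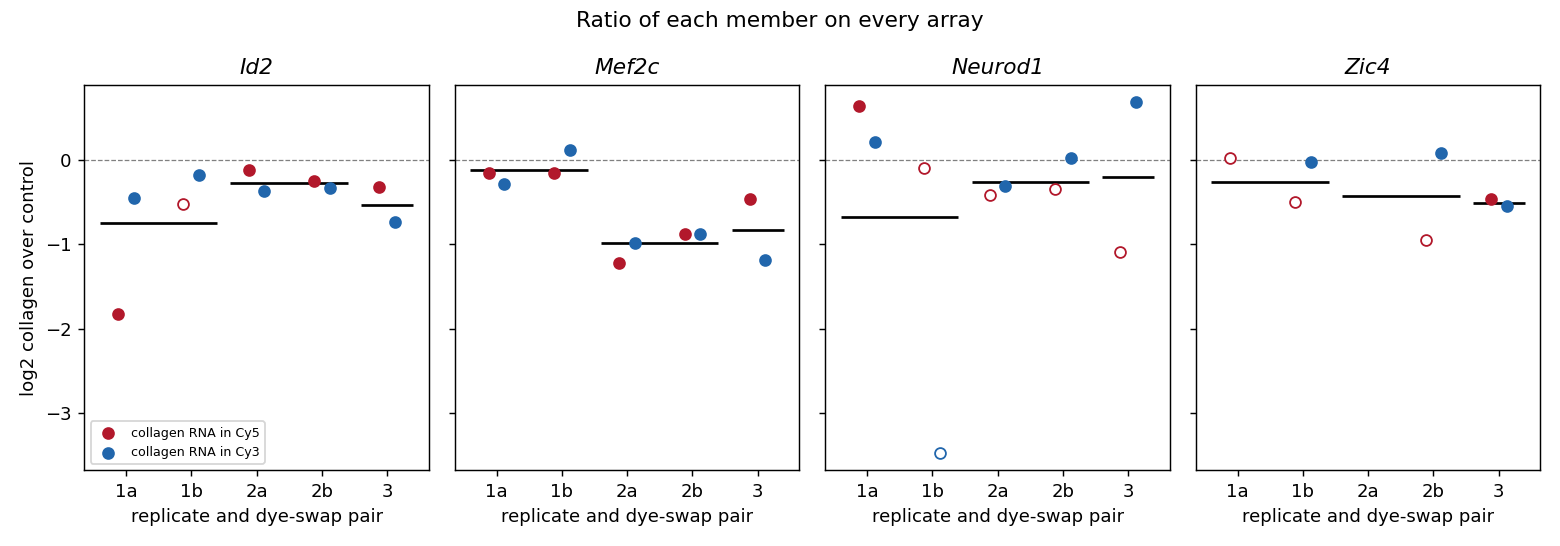
Log2 ratio of collagen over control (vertical axis) on each array, by replicate and dye-swap pair (horizontal axis; a and b are repeat hybridisations). Red points have collagen RNA in Cy5 and blue points in Cy3, open points rest on a single scan, and black lines are replicate means. Mef2c is near 0 in replicate 1 and between -1.21 and -0.46 in replicates 2 and 3, while 1 array each sets Id2 and Neurod1 in replicate 1 at -1.83 and -3.48.

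Id2 was below 0 on all 10 arrays, with a mean of -0.51 ± 0.24 (SD, n = 3), or 1.43-fold lower in collagen RNA. It was the only such probe among the 1830, 44.2% of those tested, that had a ratio on every array, which describes the ratios it was chosen by. Replicate 1 was -0.74, replicate 2 was -0.27 and replicate 3 was -0.53. With collagen in Cy5 the arrays of replicate 1 read -1.83 and -0.52, those of replicate 2 read -0.12 and -0.25, and that of replicate 3 read -0.32. With collagen in Cy3 the arrays of replicate 1 read -0.44 and -0.17, those of replicate 2 read -0.36 and -0.33, and that of replicate 3 read -0.74. Apart from the array at -1.83, the values lay between -0.74 and -0.12, and the replicates overlapped. The array at -0.52 rested on 1 of 3 scans, where both corrected signals were smaller than the background taken off them. On the array at -0.25 both corrected signals were smaller than their background on every scan. Its scans read -0.31, -0.59 and 0.14, and its brightness percentile was 12.6.

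The array at -1.83 stood apart from the others. Its 3 scans gave -1.77, -1.92 and -1.81, so rescanning repeated the value. Its dye swap gave -0.44. On that array the print blocks, groups of 210 spots laid down by one pin, had median ratios from -2.42 to 0.87, and 39.3% of the 107 other measured spots in the Id2 block were lower still. The first pair of replicate 1 averaged -1.14 and the repeat pair -0.35, a difference larger than that of 96.4% of probes. Without the first pair the mean of Id2 was -0.38, and with normexp background correction it was -0.28.

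Fitting the loess within each print block (print-tip loess) moved Id2 to -0.073 ± 0.24, with replicates at 0.18, -0.11 and -0.29. The array at -1.83 became 1.21, and Id2 was then below 0 on 7 of 10 arrays. Under that fit 2 other genes, C1qtnf4 and Ddx10, were below 0 on all 10, and Id2 was not. Mef2c was also below 0 on 7 of 10 arrays, down from 9, with a mean of -0.58 ± 0.56. Its replicate 1 changed sign, from -0.11 to 0.061, and replicates 2 and 3 stayed low at -0.94 and -0.87.

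**Figure D2:**
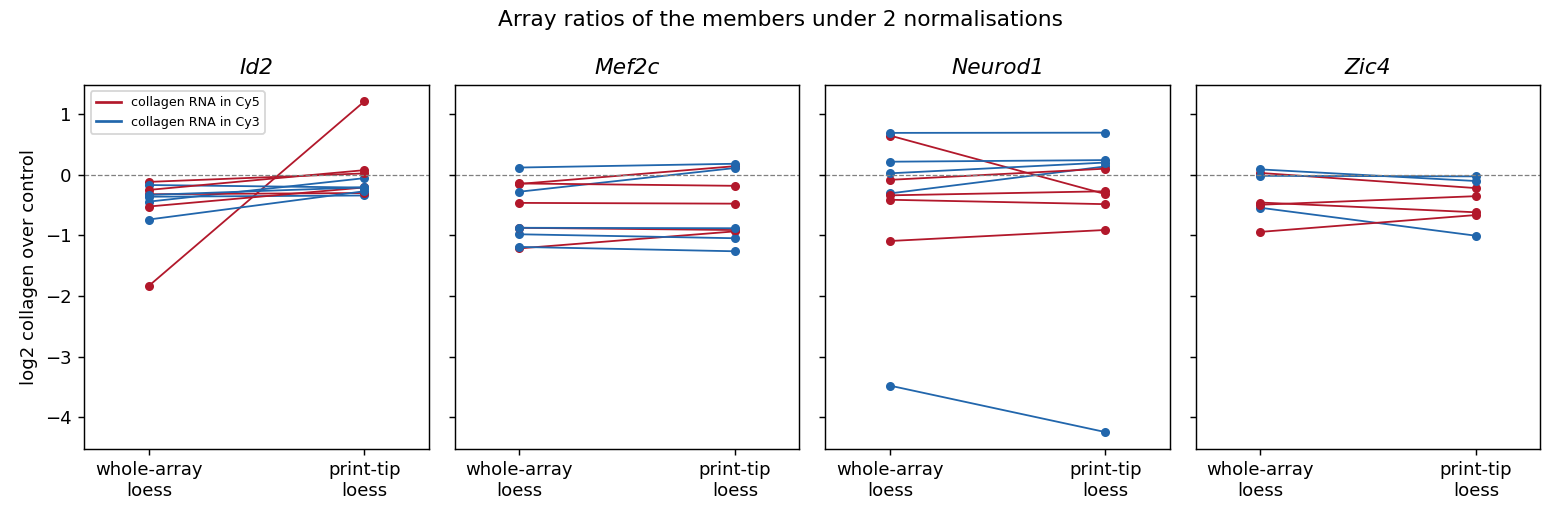
Log2 ratio of collagen over control for each array (1 line per array) after loess over the whole array and after loess within each print block. Red lines have collagen RNA in Cy5 and blue lines in Cy3. The Id2 array at -1.83 moves to 1.21, and the 6 low Mef2c arrays stay low.

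Neurod1 had a mean of -0.38 ± 0.26 (SD, n = 3), from replicates at -0.68, -0.26 and -0.20, but its arrays did not keep one direction. It was below 0 on 6 of 10 arrays. In replicate 1 the first pair read 0.64 and 0.21, and the second pair read -0.08 and -3.48. In replicate 2 the first pair read -0.41 and -0.31, and the second -0.34 and 0.02. In replicate 3 the array with collagen in Cy5 read -1.09 and its dye swap 0.69. Arrays of all 3 replicates overlapped, and replicates 1, 2 and 3 each held values on both sides of 0.

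The Neurod1 value of -3.48 rests on 1 scan of 1 array. That spot covered 29 pixels, against a median of 125 over the scans, and its saturation factor, read as the share of pixels below saturation, was 0.8966. The other scans of that array had a signal in channel A alone. Without saturated spots the mean of Neurod1 was -0.0081, and without the second pair of replicate 1 it was -0.011. It was 0.14 with the first scan of each array alone, which turns the direction, and -0.75 without the first pair of replicate 1. Print-tip loess gave -0.42 ± 0.55.

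Zic4 had a mean of -0.40 ± 0.13 (SD, n = 3), with replicates at -0.26, -0.43 and -0.50, each from a single dye-swap pair. Only 7 of 10 arrays gave a ratio, of which 5 were below 0. In replicate 1 the first array with collagen in Cy5 read 0.03 and had no partner, so it stayed out of the mean, and the second pair read -0.50 and -0.02. In replicate 2 the only measured pair read -0.94 and 0.09. Replicate 3 read -0.46 and -0.55. The arrays with collagen in Cy5 averaged -0.47 and those with collagen in Cy3 averaged -0.16, so in replicates 1 and 2 the low value came from the array with collagen in Cy5. Scans of one array differed with an SD of up to 1.23. The mean of Zic4 was -0.17 without background correction and -0.66 with median centring in place of loess.

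**Figure D3:**
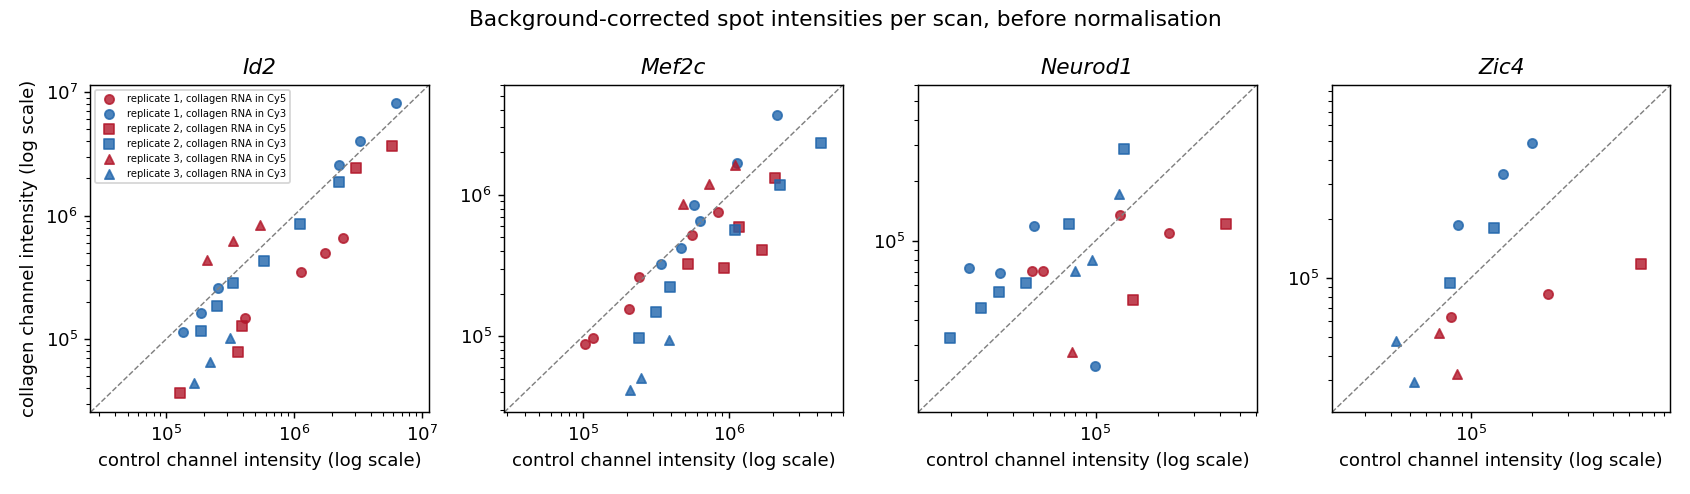
Spot intensity of the collagen channel (vertical axis) against the control channel (horizontal axis), both on log scales, for every scan with a signal in both channels, before normalisation. Circles, squares and triangles are replicates 1, 2 and 3, red with collagen RNA in Cy5 and blue in Cy3, and the dashed line marks equal intensities. Mef2c in replicate 2 lies below the line in both dyes, while Neurod1 and Zic4 have fewer points, 20 and 12 of 29 scans.

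How well each spot could be read differed among the genes. Mef2c had a signal in both channels on 29 of 29 scans and Id2 on 27. Neurod1 had both on 20 scans and a signal in channel A alone on 9. Zic4 had both on 12, channel A alone on 10 and neither on 7. The median intensity over background in channels A and B was 3.29 and 5.80 for Mef2c and 2.20 and 4.74 for Id2. For Neurod1 it was 0.877 and 1.12, and for Zic4 0.791 and 0.697, so the corrected signal of Zic4 was smaller than the background taken off it. Single arrays of Id2 were uneven, with brightness percentiles from 12.6 to 98.8. The Neurod1 and Zic4 spots lay among the dimmest 1034 probes, where the median SD over replicates was 0.203, against 0.104 among the brightest 1035, which held Mef2c. The part of dim signal in the Neurod1 and Zic4 ratios was not tested.

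Set among all probes, the members sit at the low edge by choice. Mean ratios ran around a median of -0.025 with an SD of 0.133, and 59.2% of probes had a mean below 0. Id2 ranked 13, Zic4 ranked 26 and Neurod1 ranked 29 of 4139. Id2 and Mef2c are 2 of the 9 probes, 0.217% of those tested, with a mean under -0.5 and all 3 replicates below 0. Neurod1 and Zic4 are also below 0 in every replicate, as were 20.8% of all probes. Across all probes limma called none at an adjusted p under 0.05 (0%), and 163 probes (3.94%) had an unadjusted p under 0.05.

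**Figure D4:**
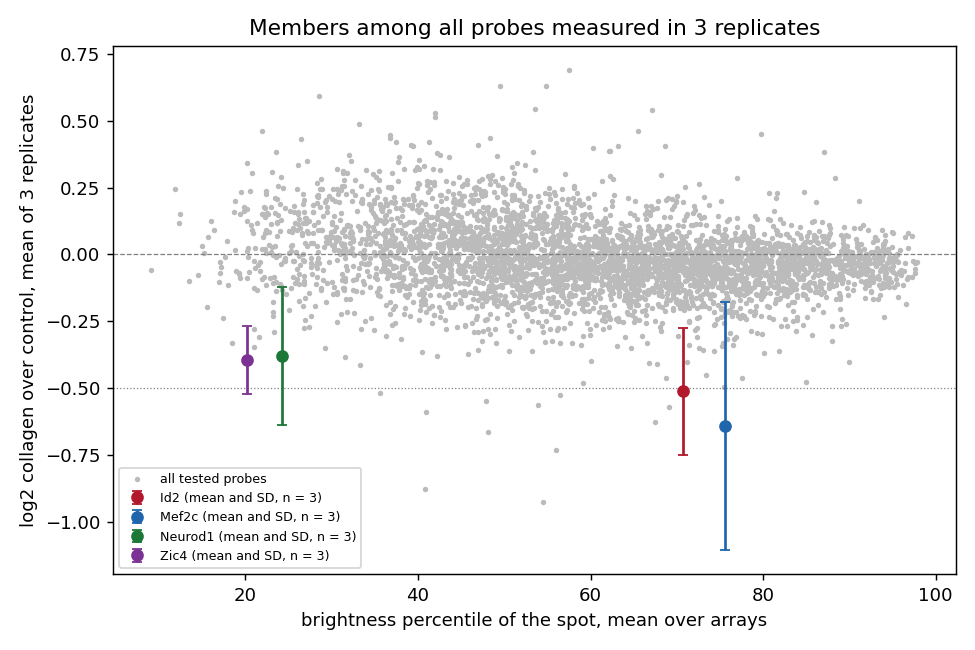
Mean log2 ratio of collagen over control (vertical axis) against the brightness percentile of the spot (horizontal axis) for the 4139 tested probes in grey, with the 4 members in colour and SD bars over 3 replicates. The dotted line marks -0.5. Mef2c at -0.64 and Id2 at -0.51 lie under the line, and Zic4 and Neurod1 lie above it at brightness percentiles of 20.2 and 24.3.

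The dye effect, channel B over A with the treatment cancelled within each pair, was not used to choose the genes and could be tested. Over all probes limma called 55 (1.33%), all with channel A brighter, and none of the 4 genes was among them. With single arrays and a replicate block 172 of 330 calls had channel A brighter, and with 5 pairs as separate values 77 of 96. At an unadjusted p under 0.05 there were 784 (18.9%), again with none of the 4. Id2 had a dye effect of -0.049 ± 0.34 (adjusted p = 0.882), with replicates at -0.44, 0.08 and 0.21. Mef2c had 0.090 ± 0.24 (adjusted p = 0.709), with replicates at -0.03, -0.06 and 0.36. Neurod1 had -0.017 ± 0.93 (adjusted p = 0.982), with replicates at 0.96, -0.12 and -0.89. Zic4 had -0.24 ± 0.28 (adjusted p = 0.371), with replicates at -0.24, -0.51 and 0.04. In Neurod1 the dye effect spread over a wider range than the ratio of collagen over control, and a p above the threshold does not show that the dyes gave equal signals.

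Genes that work with Id2 were measured only in part. Its family had 3 other genes with a probe and 1 measured in every replicate, Id4, at 0.06 ± 0.15. No probe was named for the E proteins, which Id proteins bind. Of the bone morphogenetic protein pathway, which induces Id genes, 1 of 9 genes with a probe was measured, the receptor Bmpr2, at 0.26 ± 0.23 with replicates at 0.33, 0.0012 and 0.44. None was called.

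Among the other neural basic helix-loop-helix factors, 5 of 13 with a probe were measured, 2 above and 3 below 0, with a median of -0.00087, and none was called. Neurod2, a relative of Neurod1 in cortical and cerebellar neurons, was lowest at -0.26 ± 0.47. Its replicates were 0.17, -0.76 and -0.18, so they lay on both sides of 0. Olig1, a factor of the oligodendrocyte lineage, had -0.15 ± 0.13. The highest were Neurog1, which specifies sensory and other neurons, at 0.06 ± 0.14, and Neurod6 at 0.05 ± 0.26. Of the Hes and Hey repressors 1 of 7 was measured, Bhlhe40, at 0.06 ± 0.24.

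The measured genes of the 2 lists linked to Mef2c were closer to 0 than Mef2c, which was chosen for its low ratio. No probe with a single gene symbol was named for another MEF2 gene. Of the 4 genes on the list with a probe, Hdac5, a class IIa deacetylase that represses MEF2 proteins, had -0.15 ± 0.07, and Ncoa2, a coactivator, had 0.0019 ± 0.041. In the list of activity-regulated and MEF2-linked genes, 6 of 10 with a probe were measured, all 6 were below 0 and none was called. Their median was -0.07, beside -0.025 over all probes, of which 59.2% had a mean below 0. With normexp background correction the median of the list was 0.0031. Nr4a3, an orphan nuclear receptor, had the lowest mean at -0.12 ± 0.19, and Nptx2, a secreted pentraxin of excitatory synapses, had -0.11 ± 0.10. Fos and Fosb, subunits of AP-1, had -0.01 ± 0.18 and -0.05 ± 0.13. The median of the list was -0.046, -0.19 and -0.0047 in replicates 1, 2 and 3, while Mef2c was low in replicates 2 and 3.

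Beside Zic4, 2 of 6 zinc finger and hedgehog pathway genes with a probe were measured. Zic1, its neighbour in the genome, had -0.15 ± 0.24 with replicates at -0.32, 0.12 and -0.25, on both sides of 0. Ptch1, the hedgehog receptor, had 0.06 ± 0.08. Of the midbrain transcription factors 7 of 12 with a probe were measured, 1 above and 6 below 0, beside 59.2% of all probes below 0. Their median was -0.05 and none was called. En1, a factor that maintains dopamine neurons, was highest at 0.21 ± 0.49, followed by En2 at -0.01 ± 0.32. Lmx1a, which specifies dopamine neurons, was lowest at -0.14 ± 0.06, and Nr4a2, also of that lineage, had -0.11 ± 0.50.

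**Figure D5:**
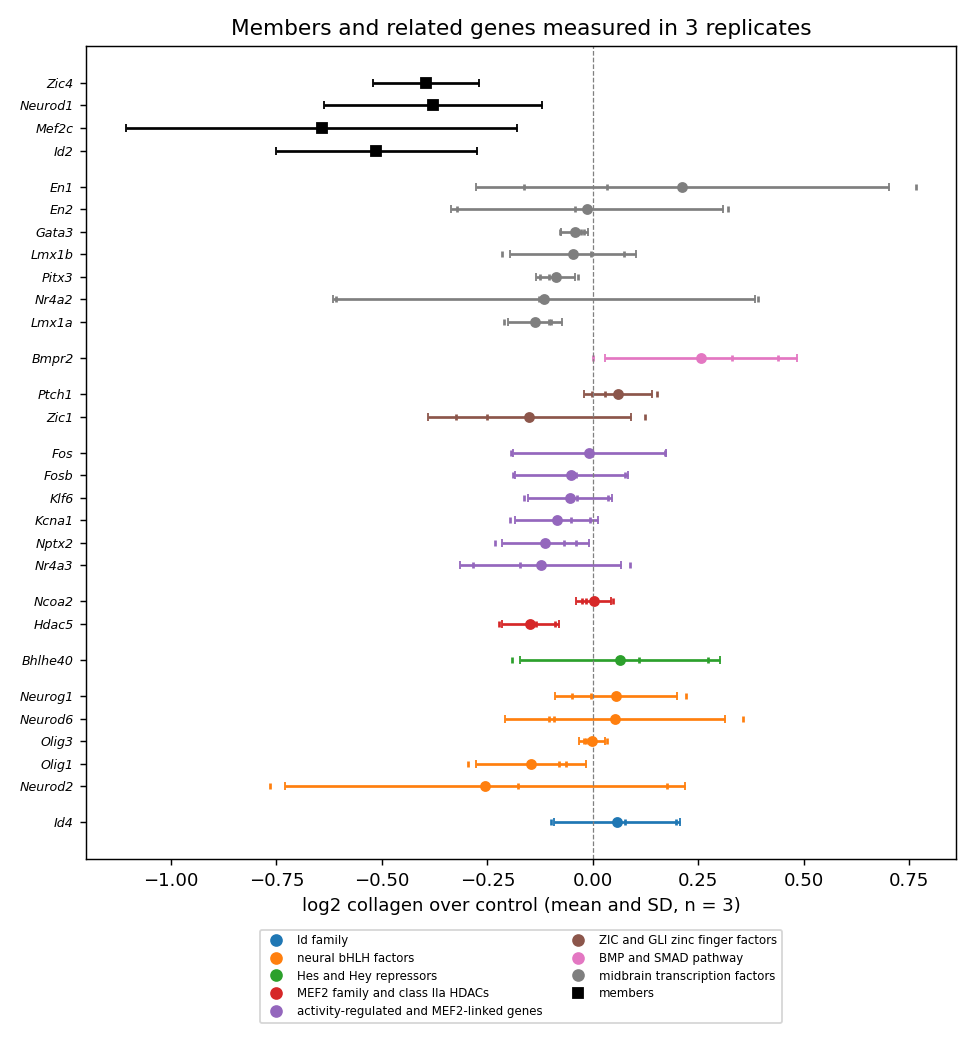
Mean log2 ratio of collagen over control (horizontal axis) with SD bars over 3 replicates, for measured genes of the related lists (coloured circles, ticks are replicates) and the 4 members (black squares). The members, chosen for low ratios, lie to the left, and the related genes lie between -0.26 and 0.26.

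Markers of the tissues and cells in which these factors are known were also read. Cerebellar markers, the neighbours of the midbrain that carry much Neurod1 and Zic4, had 6 of 10 with a probe measured. Their median was -0.09, with 1 above and 5 below 0, beside 59.2% of all probes below 0. Their replicate medians were 0.04, -0.13 and -0.08. The lowest was Neurod2, followed by Zic1, and the highest were Pax6, a granule cell factor, at 0.17 ± 0.12 and Cbln1, a granule cell synaptic protein, at -0.03 ± 0.14. Forebrain markers had 4 of 7 measured, 3 above and 1 below 0, from Lhx2 at -0.25 ± 0.16 and Camk2a at 0.03 ± 0.06 to Neurod6 and to Dlx1, at 0.12 ± 0.10. Replicate medians of the forebrain list were -0.07, -0.03 and 0.07. The part of dissection in the Neurod1 and Zic4 ratios was not tested.

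Midbrain neuron markers had 7 measured, 4 above and 3 below 0, with replicate medians of 0.02, 0.13 and 0.16. Th had 0.35 ± 0.47 and Ddc, the next enzyme of dopamine synthesis, 0.18 ± 0.15, while Nr4a2 and Slc32a1, the vesicular GABA transporter, at -0.27 ± 0.03, were the lowest. Astrocyte markers had 3 of 4 measured, from Aldh1l1 at -0.12 ± 0.01 to Sox9 at 0.02 ± 0.10 and Slc1a3 at -0.0017 ± 0.096. Oligodendrocyte markers had 4 of 5 measured. Gjc3, a connexin, read -0.88 ± 0.85 with replicate 1 at -1.86, Ugt8a had -0.09 ± 0.17, Mag had -0.04 ± 0.06 and Cldn11 had 0.05 ± 0.09. Microglia markers had 5 of 8 measured, from Laptm5 at -0.15 ± 0.29 and C1qc at -0.12 ± 0.09 to P2ry12 at 0.02 ± 0.18 and C1qa at 0.04 ± 0.39. Of the vessel markers 2 of 4 were measured, Eng at 0.02 ± 0.14 and Rgs5 at -0.06 ± 0.10, and no probe was named for the red-cell markers. Over all lists 52 genes were measured, 20 above and 32 below 0, beside 59.2% of all probes below 0. None of the 52 was called, and 3 had an unadjusted p under 0.05.

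The genes whose 5 pair ratios came closest to each member were found by the mean absolute difference over pairs, among 1686 other named genes, or 1687 for Zic4. For Id2 they were Gng5 (difference 0.13), Aagab (0.21) and Gpr85 (0.21), beside a median of 0.46, and all of them read between -1.30 and -1.14 in the first pair of replicate 1. Aagab was printed in the same block as Id2, in block row 5 and column 1, and Gpr85 and Gng5 in the adjoining rows 4 and 6 of that column. For Mef2c they were Srcin1 (0.32), Sec14l2 (0.34) and Hcn2 (0.35), beside a median of 0.59. Their means over replicates were -0.32, -0.35 and -0.55, beside -0.64 for Mef2c, which was chosen for its low ratio. Mef2c was printed in block column 3, and so were these 3 genes. For Neurod1 they were Plxdc1 (0.36), Dync1h1 (0.40) and Coq10b (0.42), beside a median of 0.62, and Plxdc1 and Dync1h1 shared its low second pair of replicate 1, at -2.20 and -2.46. Those 2 genes shared a print block, which was not that of Neurod1. The part of print position in these likenesses was not tested. Zic4 had 3 pairs to compare, and 4930488B01Rik (0.07), Id2 (0.08) and Psen2 (0.11) were closest, beside a median of 0.38.

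Averaged over replicates, the other spots of each member's print block were near 0, but single arrays were not. On the array where Id2 read -1.83, the median of its block was -0.43, that of the Neurod1 block was 0.88 and that of the Zic4 block was 0.43. The other tested probes of the Mef2c block, 102 in number, had a median mean ratio of 0.02, and Mef2c was the lowest of the block. Neurod1 and Zic4 were also the lowest of their blocks, with block medians of -0.0043 and -0.018, and Id2 ranked 2 in a block with a median of -0.04. Those ranks describe the ratios by which the members were chosen, and the part of print position in them was not tested.

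The authors' deposited table of processed values, whose scale, log base and direction are unstated, tracked the ratios computed here after turning by the dyes, with correlations across probes of 0.670 to 0.835 per array. Probes within an array are not independent replicates. In that table Mef2c was below 0 on 8 of 10 arrays, from -0.880 to 0.125, and all 6 arrays of replicates 2 and 3 were at -0.396 or lower. Id2 was below 0 on 8 of 8 arrays with a value, from -0.481 to -0.00906. The arrays where Id2 read -0.52 and -0.25 here had no value there. Neurod1 was below 0 on 2 of 5 and Zic4 on 2 of 3, with values between -0.0794 and 0.0754.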

How the data were processed

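Midbrain RNA of collagen-treated and control mice was hybridised to 10 in-house 2-colour oligonucleotide arrays, scanned 29 times. Per the file headers, the deposited intensity values of both channels were already corrected for background by the authors, with the background intensity beside them. Per the file headers each spot also has a saturation factor, a fraction from 0 to 1. The authors' deposited value table is used as a score of unstated scale. The quantification software and genome build are not given in the sources used here. Of 10080 probes, 9066 had 1 gene symbol, 12 several and 1002 none. Ratios were normalised by loess within each scan (span 0.3, 4 iterations, limma 3.58.1, R 4.3.3). Scans were averaged per array, arrays per dye-swap pair (both required) and pairs per replicate, since the titles give these pairs one replicate number. Spots without signal in both channels were left out. limma's two-sided moderated test of the replicate means against 0, adjusted by Benjamini-Hochberg at a threshold of 0.05, had n = 3 from the series text, which limits the precision. The tests were checked on simulated data whose shifts were larger than the mean ratio of any member, so smaller shifts were not checked. The members and gene lists were chosen with earlier results of these data known. Named genes were the 4 members, the 2 highest and 2 lowest measured genes of each list and the 3 genes closest to each member by pair ratios. Alternatives covered background, normalisation, scans, saturation, dim probes, replicates, pairs and the replicate block. Each array lay on a slide of its own.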

Additional observations from a re-analysis of the deposited data

Results flagged for a closer look

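In 14 sets of 4 or 5 arrays of one dye orientation, the ratio and the brightness of the 4 genes were screened for an array far from the rest, and 3 were found. Chance marks about 1 in 20 such sets. Id2 read -1.83 on the array of replicate 1 with collagen in Cy5 from the first pair, and the next value was -0.52. Neurod1 read -3.48 on the array of replicate 1 with collagen in Cy3 from the second pair, and the next value was -0.31. The brightness percentile of Mef2c was 48.7 on the array of replicate 3 with collagen in Cy3, and the next was 80.6.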

How the results depend on the processing

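Mean log2 ratios of collagen over control kept their sign for Mef2c, Id2 and Zic4 under every alternative read by the dye labels, from -0.91 to -0.24 over 23 alternatives for Mef2c, from -0.70 to -0.073 over 23 for Id2 and from -0.66 to -0.17 over 15 for Zic4. Neurod1 was below 0 in 18 of 19. Some of these alternatives could not move a mean. The trended prior left the mean of every member as it was, and the cuts of dim probes left those of Id2 and Mef2c. The counts are therefore no measure of robustness, and the members were chosen for low ratios. Id2 was -0.073 under print-tip loess. Neurod1 was 0.14 on first scans, -0.0081 when saturated spots were left out, -0.045 on first pairs and, in alternatives chosen after seeing the data, -0.75 without the first and -0.011 without the second pair of replicate 1. Zic4 was -0.17 without background correction and -0.66 under median centring. Leaving out each replicate gave -0.64 to -0.40 for Id2, -0.91 to -0.47 for Mef2c, -0.47 to -0.23 for Neurod1 and -0.46 to -0.34 for Zic4. With channel letters read as the RNA the arrays are not turned, so the values are those of the dye effect. Id2 was then -0.049, Mef2c 0.090, Neurod1 -0.017 and Zic4 -0.24, and the 55 probes called are the dye calls. Under that reading 185 probes were consistently lower in channel B. The other alternatives called 0 probes for collagen over control. The 9 consistently lower probes became 2 without background correction, 16 with normexp, 67 under median centring, 1 under print-tip loess, 14 with scaling, 5 without saturated spots, 4 without the dimmer 50% of probes, 19 with first pairs, 36 for probes in at least 2 replicates, 0 in the authors' value table, 21 without the second pair of replicate 1, 5 without the second pair of replicate 2 and 13 to 36 without a replicate. The 55 dye calls became 30 with normexp, 0 under median centring, 83 with scaling, 13 with the first and 8 with the second scan, 96 with 5 pairs, 33 without the first pair of replicate 1, 90 with a trended prior and 26 to 235 without a replicate. With the replicate block on single arrays (consensus correlation 0.0365) 330 dye calls were made and the Neurod1 dye effect was 0.14, and no call of a member changed.

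The dye effect of Id2 turned to 0.15 under print-tip loess and 0.038 without the first pair of replicate 1, and ran from -0.18 to 0.14 without a replicate. That of Mef2c turned to -0.11 with normexp, -0.021 with scaling and -0.041 in the authors' value table, and ran from -0.046 to 0.16 without a replicate. That of Neurod1 turned to 0.075 with normexp, 0.050 with scaling, 0.16 with 5 pairs, 0.23 without the first pair of replicate 1 and 0.0042 without the second pair of replicate 2, and ran from -0.50 to 0.42 without a replicate. Under median centring it was 0.32 for Mef2c, -0.72 for Neurod1 and -1.22 for Zic4, and that of Zic4 stayed below 0, up to -0.083 under print-tip loess. None passed the threshold under any alternative, with adjusted p from 0.116 to 0.996 for Neurod1. The causes were not tested, except that 5 pairs, single arrays and a left-out replicate change the number of values. Zic4 had no value on single scans, on first pairs, without the second pair of replicate 1 or 2, without dim probes or in the authors' value table, and Neurod1 had none on the second or the third scan, without dim probes or in that table. Of 357 list medians under alternatives, 287 moved by less than the replicate spread. Signal over background limits Neurod1 and Zic4.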
